A study of Mus musculus with 6 samples.

Results

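Hepatocytes are held together by adherens junctions, sealed by tight junctions and coupled by gap junctions, and 9 genes that encode core proteins of these structures are described here in a mouse hepatocyte line. They are the cadherins Cdh1 and Cdh2, the cadherin-bound catenin Ctnnb1, the tight junction genes Tjp1, Ocln and F11r, and the connexins Gja1, Gjb1 and Gjb2. They were taken by gene symbol, which gave 9 of the 26359 genes and loci in the deposited table. The data are bulk RNA-seq of AML12 cells, a non-tumorigenic line grown from hepatocytes of a mouse transgenic for human transforming growth factor alpha. There were 3 libraries whose cell line label is sh-1 and 3 whose cell line label is sh-NC, the control, and no age, treatment or time is given for them. The study built stably transfected AML12 lines with altered TM9SF1, a gene of the transmembrane 9 superfamily, to follow its role in liver ischemia-reperfusion injury. Groups follow the cell line label. Titles read Sh-2 for the sh-1 libraries and name only the parental line for the sh-NC libraries, and no label states the target of a hairpin or whether the sh-NC cells carried one. Whether a line was 1 clone or a pool, and whether the libraries of a group came from separate cultures, is not given in the sources used here, so a p-value covers library-to-library spread that may be technical.

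In adherens junctions, E-cadherin (Cdh1) or N-cadherin (Cdh2) binds the same cadherin on the neighbouring cell, and β-catenin (Ctnnb1) joins the cadherin tail to α-catenin and actin. β-catenin that is not held at the membrane or degraded by the Axin and APC complex enters the nucleus and activates transcription with TCF and LEF factors, which in liver sets the gene programme around the central vein. In tight junctions, occludin (Ocln), claudins and junctional adhesion molecule A (F11r) span the membrane and the scaffold ZO-1 (Tjp1) ties them to actin, and in hepatocytes they seal the bile canaliculus. In gap junctions, connexin hexamers dock between cells. Connexin 32 (Gjb1) and connexin 26 (Gjb2) are the connexins of mature hepatocytes, whereas connexin 43 (Gja1) is typical of non-parenchymal and dedifferentiated liver cells.

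Libraries held 36997329 to 41506383 counts in sh-1 and 39462554 to 51334798 in sh-NC. Tm9sf1 measured 35.3, 36.8 and 36.5 CPM (counts per 1000000 counts, TMM-scaled) in sh-1 and 47.2, 53.4 and 45.8 CPM in sh-NC, a log2 fold change of -0.43 (edgeR adjusted p = 0.00186). The groups did not overlap. Fold changes across the table followed transcript GC content, with a median log2 fold change of 1.03 in the tenth of genes poorest in GC and -0.54 in the tenth richest in GC. Each junction gene is therefore also given after the trend along GC content and transcript length was removed from each library, which took Tm9sf1 to -0.09 (edgeR adjusted p = 0.358). Of 11 hepatocyte markers, 8 reached 1 CPM in at least 1 library, and their summed level was 6515 to 8163 CPM in sh-1 and 9605 to 11842 CPM in sh-NC, mostly Krt8 and Krt18. Apoa2, Cps1 and Tat stayed below 1 CPM in all 6 libraries and Alb averaged 2.68 CPM in sh-1 and 4.43 CPM in sh-NC, so mRNAs of several defining liver proteins were low where those of Krt8, Krt18 and Hnf4a were abundant.

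Of the 9 junction genes, 8 passed the filter on low counts and 7 of these passed the test, 6 higher and 1 lower in sh-1. Of all tested genes 65.5% passed (33.3% higher and 32.2% lower), so a call by itself sets none of these genes apart. Ctnnb1, Tjp1, Cdh2, Gja1, Gjb1 and Ocln rose, F11r fell, Cdh1 did not pass, and Gjb2 was too low to test. The median log2 fold change of the 8 tested genes was 1.19, against -0.000647 over all 13197 genes tested. Ocln passed the filter only through its sh-1 libraries, and the count and the median include it. Among the 8 tested genes the groups did not overlap in 7, Ocln included, compared with 70.3% of all tested genes. They overlapped in Cdh1, and in Gjb2, which was not tested. In bulk RNA, fewer cells carrying a transcript and less transcript per cell cannot be told apart.

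**Figure D1:**
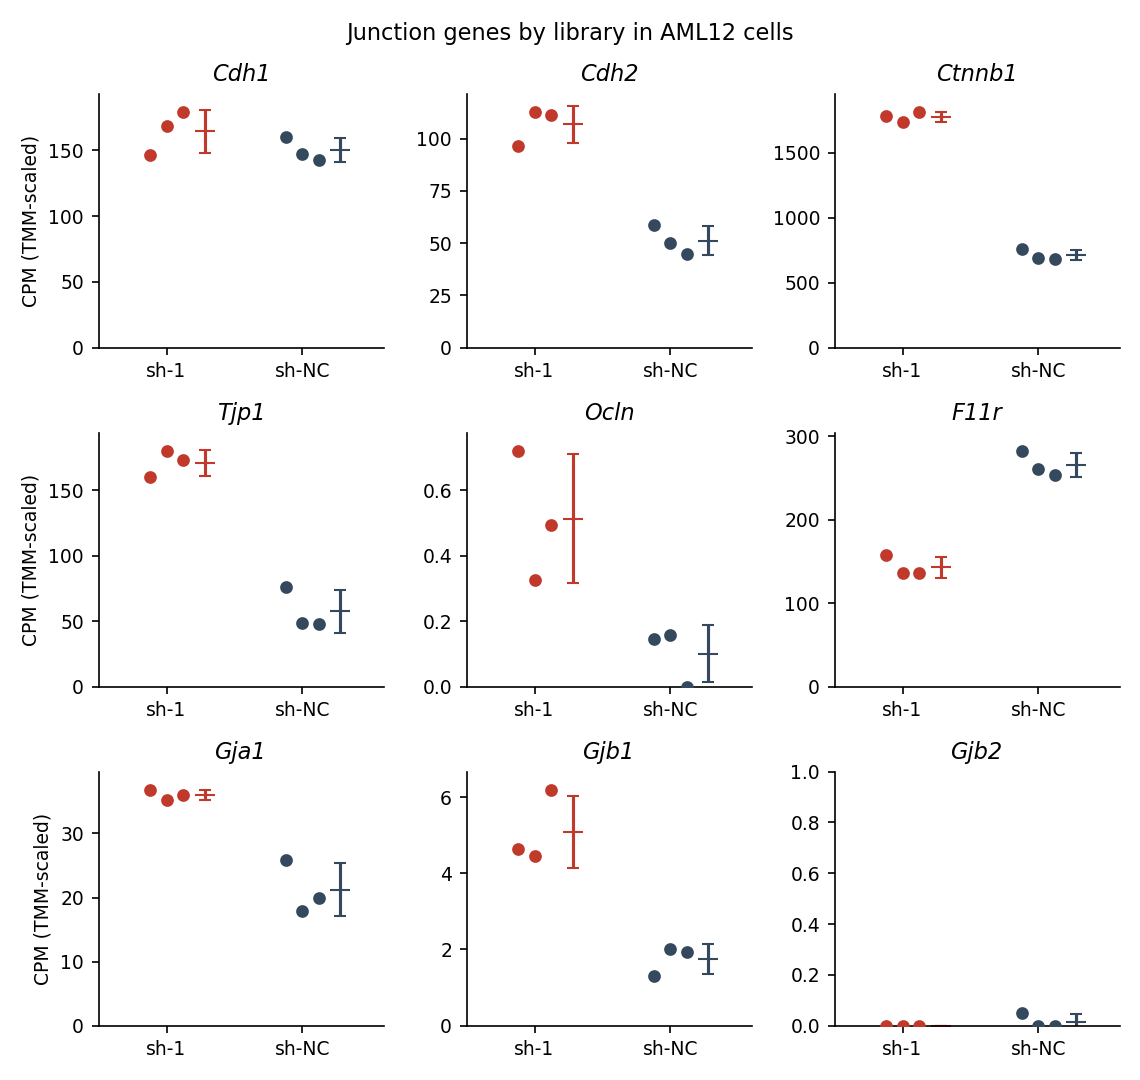
TMM-scaled CPM of the 9 junction genes, 1 panel per gene, with 1 point per library, sh-1 left of sh-NC, and a bar for the mean ± SD (n = 3 each). The sh-1 points lie above every sh-NC point for Cdh2, Ctnnb1, Tjp1, Ocln, Gja1 and Gjb1, below them for F11r, and overlap them for Cdh1.

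RefSeq promoter entries (GRCm38.p6, 250 bases upstream of a transcript start) were found for 7 of the 9 genes, 12 entries in all, and 4 are shown because they stand before the most abundant of the 9 transcripts, before 2 tight junction genes that moved in opposite directions and before a connexin. Capitals mark matches on either strand to the E-box CAGGTG bound by ZEB and SNAIL repressors, the TCF/LEF core CTTTGAT, the AP-1 site TGANTCA, the GC box GGGCGG and the TATA box TATAAA. No match in these 4 overlaps another.
Ctnnb1, chr9:120933328-120933577, plus strand: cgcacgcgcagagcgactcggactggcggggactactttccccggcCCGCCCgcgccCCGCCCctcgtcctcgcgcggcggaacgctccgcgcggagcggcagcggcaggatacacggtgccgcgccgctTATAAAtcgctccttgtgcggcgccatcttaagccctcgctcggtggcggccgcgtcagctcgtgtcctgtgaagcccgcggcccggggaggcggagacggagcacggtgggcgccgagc
Tjp1, chr7:65371245-65371494, minus strand: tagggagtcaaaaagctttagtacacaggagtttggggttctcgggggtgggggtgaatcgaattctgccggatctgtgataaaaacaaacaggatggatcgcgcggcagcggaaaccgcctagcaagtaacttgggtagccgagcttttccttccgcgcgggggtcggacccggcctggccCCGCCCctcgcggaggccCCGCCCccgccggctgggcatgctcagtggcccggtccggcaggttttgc
F11r, chr1:171437311-171437560, plus strand: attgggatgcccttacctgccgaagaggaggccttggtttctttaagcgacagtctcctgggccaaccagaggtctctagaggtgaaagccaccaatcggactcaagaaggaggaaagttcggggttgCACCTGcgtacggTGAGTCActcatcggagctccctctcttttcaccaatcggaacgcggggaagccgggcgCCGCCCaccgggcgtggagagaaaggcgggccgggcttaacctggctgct
Gja1, chr10:56377050-56377299, plus strand: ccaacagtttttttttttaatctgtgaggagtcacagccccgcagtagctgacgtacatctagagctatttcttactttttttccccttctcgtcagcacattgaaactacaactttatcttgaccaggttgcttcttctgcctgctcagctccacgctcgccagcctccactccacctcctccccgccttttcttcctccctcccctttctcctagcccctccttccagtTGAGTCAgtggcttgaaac
The Ctnnb1 window, at the downstream of its 2 starts, is 74.4% G and C and holds 2 GC boxes and a TATA box. The Tjp1 window is 63.2% G and C with 2 GC boxes, and the F11r window is 60.0% G and C with 1 E-box, 1 AP-1 site and 1 GC box. The Gja1 window has 1 AP-1 site and is the poorest of the 4 in G and C, below the median of 52.4% over the 32851 promoters of the RefSeq table. Over the 12 entries the E-box was matched in 4, the AP-1 site in 2, the GC box in 8, the TATA box in 2 and the TCF/LEF core in 0. In all promoters of the table those shares were 17.2% for the E-box, 6.75% for the AP-1 site, 32.7% for the GC box, 12.4% for the TATA box and 3.21% for the TCF/LEF core. The 12 entries are not independent, since some genes have several and the 2 Ctnnb1 windows overlap and share GC boxes. By gene, matches were found in 4 for the E-box, 2 for the AP-1 site, 6 for the GC box, 2 for the TATA box and 0 for the TCF/LEF core. A match describes letters in the window and is not a measured binding site.

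N-cadherin mRNA was about doubled in sh-1, while E-cadherin mRNA did not pass the test. Cdh2, on the minus strand of chromosome 18 (16588877 to 16809246, GRCm38), had 96.4, 113 and 111 CPM in sh-1 and 58.5, 50.3 and 44.7 CPM in sh-NC. Every sh-1 library was above every sh-NC library. Its mean was 107 ± 9.04 CPM in sh-1 and 51.2 ± 6.91 CPM in sh-NC (SD, n = 3 each), a log2 fold change of 1.06 (SE 0.11, 95% interval 0.82 to 1.30, edgeR adjusted p = 3.59e-06). After removal of the GC and length trend it was 1.02 (edgeR adjusted p = 9.5e-08). N-cadherin is expressed by hepatocytes beside E-cadherin and is also the cadherin of mesenchymal cells.

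Cdh1, on the plus strand of chromosome 8 (106603351 to 106670246), had 146, 168 and 179 CPM in sh-1 and 160, 147 and 143 CPM in sh-NC. The lowest sh-1 library lay among the sh-NC libraries and the other two above them. Its mean was 164 ± 16.5 CPM in sh-1 and 150 ± 8.96 CPM in sh-NC (SD, n = 3 each). The log2 fold change was 0.13 with a 95% interval of -0.07 to 0.33 (SE 0.09, edgeR adjusted p = 0.22), so a change as large as that of Cdh2 lies outside it. Cdh1 passed the threshold without sh-1 replicate 1 (0.21, edgeR adjusted p = 0.0371) and with the GC and length trend removed (0.22, edgeR adjusted p = 0.0205), in both cases upward in sh-1.

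Within each library, deposited FPKM (fragments scaled for transcript length and library depth) put Cdh2 at 0.602, 0.613 and 0.570 times Cdh1 in sh-1 and at 0.334, 0.312 and 0.287 times Cdh1 in sh-NC. Cdh1 thus stayed the more abundant of the pair in all 6 libraries, by a smaller margin in sh-1. The ratio averaged 0.595 ± 0.0223 in sh-1 and 0.311 ± 0.0237 in sh-NC (SD, n = 3 each). By counts per kilobase of all exons the ratio was lower, 0.369 ± 0.0138 in sh-1 and 0.193 ± 0.0147 in sh-NC (SD, n = 3 each), so its size depends on the length used while the order of the groups does not. These ratios have no test of their own.

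β-catenin mRNA was the most abundant of the 9 by FPKM and rose 2.50-fold. Ctnnb1, on the plus strand of chromosome 9 (120929216 to 120960507), had 1782, 1737 and 1810 CPM in sh-1 and 757, 690.2 and 685 CPM in sh-NC. The libraries of each group lay close together and far from those of the other group. Its mean was 1776 ± 37.2 CPM in sh-1 and 711 ± 40.0 CPM in sh-NC (SD, n = 3 each), a log2 fold change of 1.32 (SE 0.09, 95% interval 1.13 to 1.52, edgeR adjusted p = 1.27e-07). With the GC and length trend removed it was 1.41 (edgeR adjusted p = 9.58e-10). Its exons overlap 759 bases of Ulk4 on the other strand, and whether the counting used strand is not given in the sources used here, but Ulk4 averaged 0.260 CPM in sh-1 and 0.348 CPM in sh-NC.

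Ctnnb1 was also set against the cadherins among the 9 genes. Its FPKM was 9.30, 7.85 and 7.90 times the sum of Cdh1 and Cdh2 in sh-1. In sh-NC it was 4.36, 4.38 and 4.61 times that sum. The groups did not overlap. By counts per kilobase of all exons the mean ratio was 6.999 in sh-1 and 3.50 in sh-NC. Other cadherins are not in this sum, among them Cdh6, at a mean of 21.7 FPKM in sh-1 and 7.97 FPKM in sh-NC. These are ratios of mRNA levels, and no protein was measured.

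**Figure D2:**
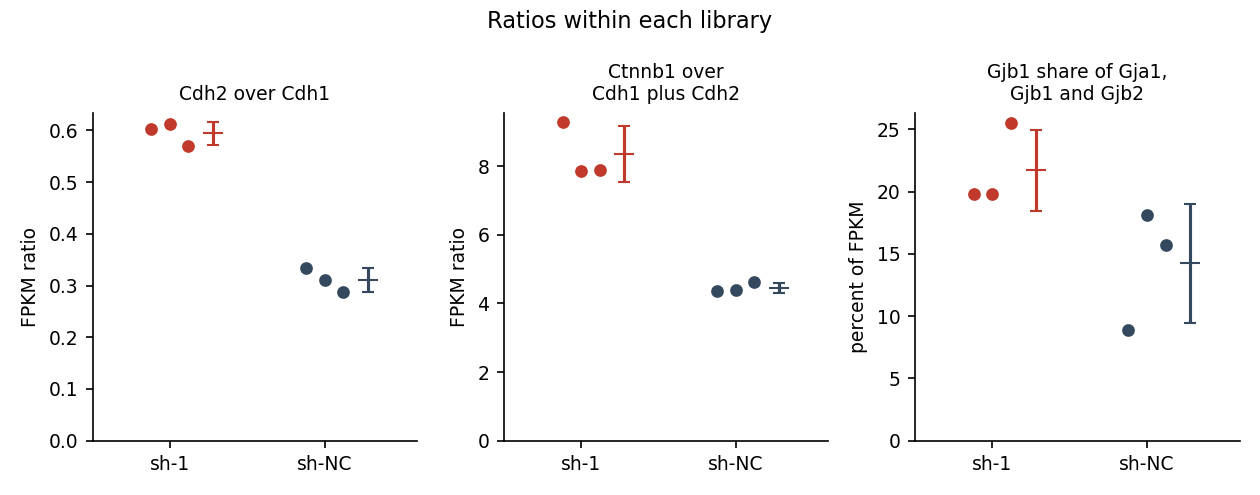
Ratios within each library from deposited FPKM, 1 point per library with sh-1 left of sh-NC: Cdh2 over Cdh1, Ctnnb1 over the sum of Cdh1 and Cdh2, and Gjb1 as a percent of the summed Gja1, Gjb1 and Gjb2. All 3 ratios average higher in sh-1, and each sh-1 library is above every sh-NC library.

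The tight junction genes moved in opposite directions, with the scaffold up and the adhesion molecule down in sh-1. Tjp1, on the minus strand of chromosome 7 (65296165 to 65527781), had 160.3, 180 and 173 CPM in sh-1 and 76.2, 48.5 and 47.8 CPM in sh-NC. Every sh-1 library was above every sh-NC library, and sh-NC replicate 1 stood above its 2 fellows. Its mean was 171 ± 9.94 CPM in sh-1 and 57.5 ± 16.2 CPM in sh-NC (SD, n = 3 each), 2.98-fold, with a log2 fold change of 1.57 (SE 0.16, 95% interval 1.22 to 1.93, edgeR adjusted p = 6.37e-06). At its GC content of 46.8% and its length, the trend shared by other genes was 0.42, and with it removed the log2 fold change was 1.16 (edgeR adjusted p = 1.53e-07).

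F11r, on the plus strand of chromosome 1 (171437535 to 171464603), was the gene of the 9 that fell. It had 158, 136 and 136 CPM in sh-1 and 282, 261 and 254 CPM in sh-NC, with no overlap. Its mean was 143 ± 12.5 CPM in sh-1 and 265 ± 14.7 CPM in sh-NC (SD, n = 3 each), which is 0.539 of the sh-NC level, or a log2 fold change of -0.89 (SE 0.09, 95% interval -1.08 to -0.70, edgeR adjusted p = 2.14e-06). With the GC and length trend removed it was -0.81 (edgeR adjusted p = 2.19e-07). F11r encodes an immunoglobulin-like adhesion molecule that recruits polarity proteins to young junctions, and Tjp1 is among the scaffolds that bind its tail.

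Occludin mRNA was near the detection limit in both groups. Ocln, on the minus strand of chromosome 13 (100496507 to 100552718), had 30, 14 and 19 counts in sh-1 and 6, 6 and 0 counts in sh-NC. That is 0.513 ± 0.197 CPM in sh-1 and 0.101 ± 0.0875 CPM in sh-NC (SD, n = 3 each), where 3 counts, the limit that a count of 0 allows, come to 0.0623 to 0.0787 CPM in sh-NC. The sh-1 libraries were all higher, and the log2 fold change of 2.37 (SE 0.85, 95% interval 0.51 to 4.23, edgeR adjusted p = 0.0275) rests on these few counts. The call was lost with DESeq2 (adjusted p = 0.0505) and with the GC and length trend removed (1.51, edgeR adjusted p = 0.138). Leaving out sh-NC replicate 3 ended it as well (1.75, edgeR adjusted p = 0.082), as did leaving out sh-1 replicate 1 (2.04, edgeR adjusted p = 0.119) or sh-1 replicate 3 (2.40, edgeR adjusted p = 0.0613).

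Among the connexins, Gja1 and Gjb1 rose and Gjb2 was at or near 0 counts. Gja1, on the plus strand of chromosome 10 (56377330 to 56402513), had 36.7, 35.2 and 36.0 CPM in sh-1 and 25.9, 17.9 and 19.9 CPM in sh-NC. The sh-1 libraries were tightly grouped above all sh-NC libraries. Its mean was 36.0 ± 0.768 CPM in sh-1 and 21.2 ± 4.15 CPM in sh-NC (SD, n = 3 each), a log2 fold change of 0.76 (SE 0.13, 95% interval 0.47 to 1.05, edgeR adjusted p = 0.000305). At its GC content of 45.1% and its length the shared trend was 0.52, and with it removed the log2 fold change was 0.23 and no longer passed (edgeR adjusted p = 0.0562).

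Gjb1, on the plus strand of chromosome X (101376378 to 101385629), had 193, 191 and 237 counts in sh-1 and 54, 77 and 93 counts in sh-NC. Scaled, it had 4.63, 4.44 and 6.18 CPM in sh-1 and 1.31, 2.02 and 1.93 CPM in sh-NC, again with no overlap. Its mean was 5.08 ± 0.952 CPM in sh-1 and 1.75 ± 0.390 CPM in sh-NC (SD, n = 3 each), a log2 fold change of 1.53 (SE 0.26, 95% interval 0.96 to 2.11, edgeR adjusted p = 0.000242). Gjb1 is the member richest in GC (56.7%), where the shared trend ran downward in sh-1 (-0.45), and with the trend removed its log2 fold change was 1.99 (edgeR adjusted p = 9.54e-06).

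Gjb2, on the minus strand of chromosome 14 (57098600 to 57104702), had 0, 0 and 0 counts in sh-1 and 2, 0 and 0 counts in sh-NC. The limit of 3 counts comes to 0.0698 to 0.0782 CPM in sh-1 and 0.0623 to 0.0787 CPM in sh-NC, so no difference was detectable at this depth and no fold is given. Of the summed FPKM of the 3 connexins, Gjb1 made up 19.8, 19.8 and 25.5% in sh-1 and 8.91, 18.2 and 15.7% in sh-NC. Gja1 made up the rest but for a trace, 74.5 to 80.2% in sh-1 and 81.8 to 90.9% in sh-NC. These shares depended on the length used: by counts per kilobase of all exons Gjb1 made up 43.1, 43.1 and 50.7% in sh-1 and 23.1, 40.4 and 36.9% in sh-NC, again with no overlap. The summed FPKM was 14.3, 14.2 and 15.7 FPKM in sh-1 and 9.03, 6.71 and 7.13 FPKM in sh-NC.

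**Figure D3:**
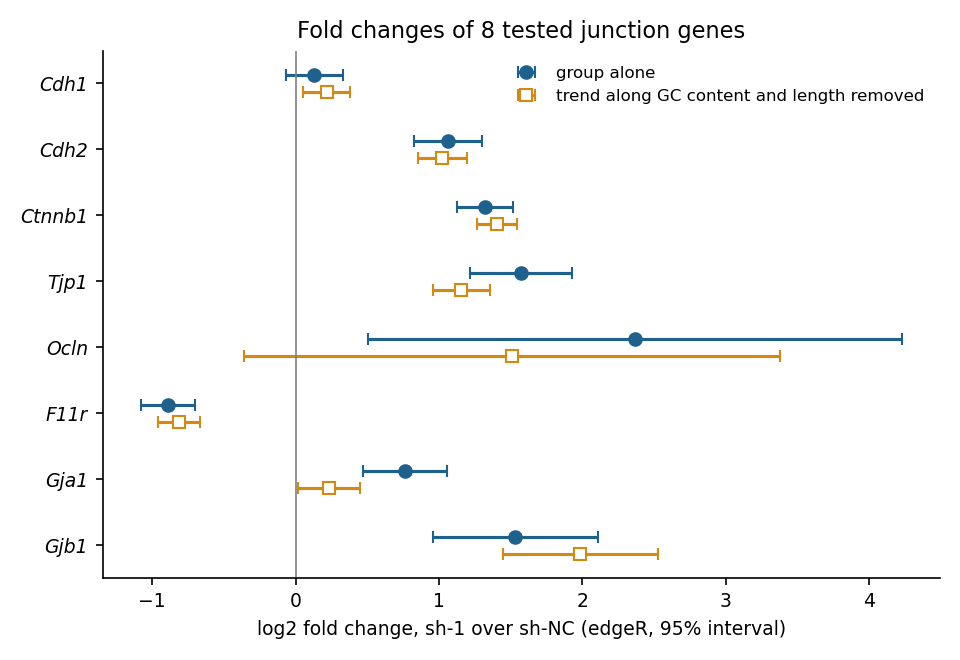
Log2 fold change of the 8 tested junction genes, sh-1 over sh-NC, with 95% intervals, as measured and with the trend along GC content and transcript length removed. Ctnnb1, Cdh2, Tjp1, Gjb1 and F11r keep intervals away from 0 in both settings, whereas once the trend is removed the interval of Ocln includes 0, that of Gja1 comes close to it (0.01 to 0.45, unadjusted) and that of Cdh1 moves off it (0.05 to 0.38).

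Of the 6 genes that rose, 4 kept their call with the GC and length trend removed (Cdh2, Ctnnb1, Tjp1 and Gjb1), and F11r kept its fall. Over the genes with a GC value, 67.7% passed in that setting, 32.9% higher and 34.7% lower. Genes past the threshold with a change of at least 2-fold made up 29.7% of all tested genes. Among the junction genes they were Cdh2, Ctnnb1, Tjp1, Gjb1 and Ocln. Ocln rests on few counts and passed the filter only through sh-1, so its place here adds no support.

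By FPKM, which corrects for transcript length, the order of the mean levels in sh-1 was Ctnnb1 (483), F11r (55.9), Cdh1 (36.6), Tjp1 (24.6), Cdh2 (21.7), Gja1 (11.5) and Gjb1 (3.22), then Ocln and Gjb2. In sh-NC it was Ctnnb1 (186), F11r (99.1), Cdh1 (31.8), Cdh2 (9.95), Tjp1 (7.98), Gja1 (6.57) and Gjb1 (1.05), again followed by Ocln and Gjb2. Neighbours whose spreads overlapped were Tjp1 and Cdh2 in sh-1, and Cdh2 and Tjp1, Tjp1 and Gja1, and Ocln and Gjb2 in sh-NC. The place of Tjp1 also depended on the length used: it was 1.14 times Cdh2 in sh-1 and 0.792 times Cdh2 in sh-NC by FPKM, and 1.66 times in sh-1 and 1.15 times in sh-NC by counts per kilobase of all exons.

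**Figure D4:**
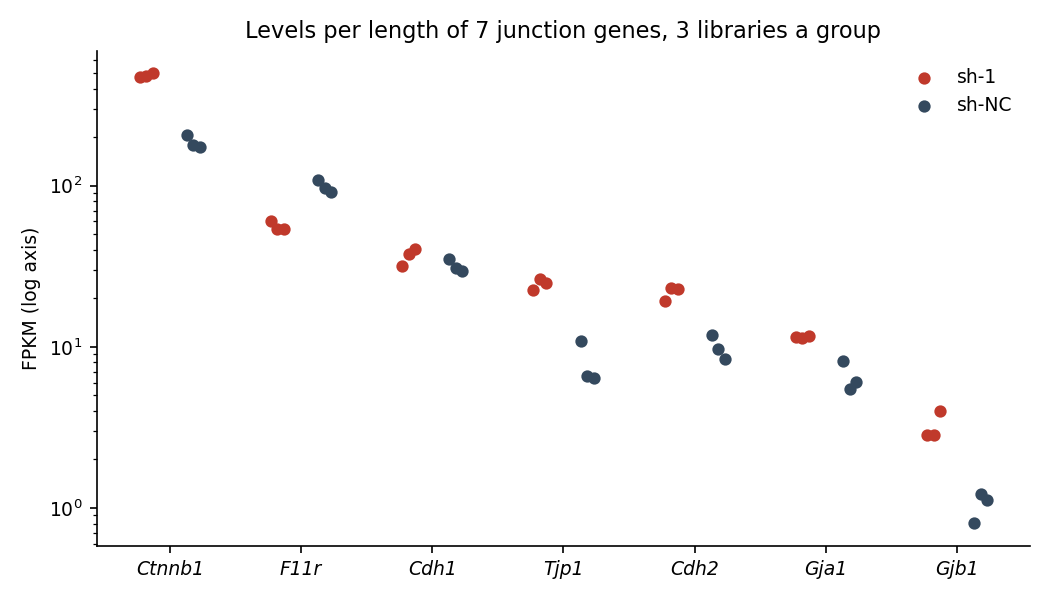
Deposited FPKM of the 7 junction genes above 1 FPKM in at least 1 group, on a log axis, 1 point per library with sh-1 left of sh-NC. Ctnnb1 stands far above the others in both groups, and Gjb1 is the lowest.

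The rest of each junction was read from lists of genes chosen by their known roles, and each list's counts stand beside 33.3% higher, 32.2% lower and a median of -0.000647 over all tested genes. Counts and medians include the genes that passed the filter only through the group where they were higher, which were Dchs1 among the cadherins, Dsg3 among the desmosome genes, Lgr5 among the β-catenin targets, Grhl2 among the regulators and 1 gene of the connexin list. Among 19 catenins, nectins and actin linkers of the adherens junction, 16 were tested, 5 were higher and 4 lower, with a median log2 fold change of 0.16. Of the other partners of the cadherin tail, α-catenin and p120-catenin did not pass the test and plakoglobin rose. α-catenin (Ctnna1) averaged 921 CPM in sh-1 and 992 CPM in sh-NC (log2 fold change -0.11, edgeR adjusted p = 0.29), and p120-catenin (Ctnnd1) averaged 597 CPM in sh-1 and 541 CPM in sh-NC (0.14, edgeR adjusted p = 0.18). Plakoglobin (Jup), which can take the place of β-catenin at the cadherin, had 224, 253 and 245 CPM in sh-1 and 149, 142 and 139 CPM in sh-NC, with no overlap. It rose by a log2 fold change of 0.75 (edgeR adjusted p = 4.47e-06), and by 1.32 with the GC and length trend removed. Nectin1, an adhesion molecule that precedes cadherin contacts, fell to 1.62 CPM in sh-1, against 6.19 CPM in sh-NC (-1.93, edgeR adjusted p = 1.32e-05). Nectin2 averaged 28.6 CPM in sh-1 and 35.3 CPM in sh-NC (-0.30, edgeR adjusted p = 0.0311), but with the trend removed it passed in the opposite direction (0.24, edgeR adjusted p = 0.0222). Of the 9 genes called in this list 7 kept their direction and call there and 2 turned, the other one being Arvcf (-0.29 as measured, 0.23 with the trend removed), named after its values were seen.

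Of 19 other cadherins 11 were tested, 3 were higher and 4 lower (median -0.16). Protocadherin 1 (Pcdh1) fell to 55.8 CPM in sh-1, against 240 CPM in sh-NC (-2.10, edgeR adjusted p = 6.29e-09). Cdh6, a cadherin of kidney and biliary epithelia, rose to 180 CPM in sh-1, against 69.3 CPM in sh-NC (1.38, edgeR adjusted p = 2.09e-07), and was at 0.36 with the GC and length trend removed. Celsr1, a planar polarity cadherin, rose to 6.93 CPM in sh-1, against 2.11 CPM in sh-NC (1.72, edgeR adjusted p = 2.35e-05). Dchs1, the ligand of the Fat4 cadherin, had 0 counts in sh-1 and 109 counts over the sh-NC libraries, at least 11.7-fold lower in sh-1 with a floor of 3 counts per library, and it passed the filter only through sh-NC.

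Claudins form the strands of the tight junction, and 5 of 20 listed were tested, 1 higher and 3 lower (median -0.32). Cldn2, a claudin that forms cation pores, had 297 to 330.1 CPM in sh-1 and 77.6 to 91.1 CPM in sh-NC and rose by a log2 fold change of 1.93 (edgeR adjusted p = 1.13e-08). Its value was 1.89 with the GC and length trend removed. Cldn1, the barrier-forming claudin of liver, had 0 counts in all 6 libraries. Cldn18 averaged 0.313 CPM in sh-1 and 1.42 CPM in sh-NC, a fall of 2.16 on the log2 scale (edgeR adjusted p = 0.00407).

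Among 26 other tight junction and polarity genes 22 were tested, 9 were higher and 3 lower (median 0.24). The cingulin-like scaffold Cgnl1 rose to 306 CPM in sh-1, against 127 CPM in sh-NC (1.27, edgeR adjusted p = 6.76e-08), as did Magi1, at 40.5 CPM in sh-1 and 14.0 CPM in sh-NC (1.53, edgeR adjusted p = 3.31e-07). The tricellular junction gene Lsr fell to 140.2 CPM in sh-1, against 324 CPM in sh-NC (-1.21, edgeR adjusted p = 4.75e-07), or -0.66 with the GC and length trend removed. In that setting 1 called gene of this list passed in the opposite direction. The polarity gene Pard6b fell to 18.2 CPM in sh-1, against 64.9 CPM in sh-NC (-1.83, edgeR adjusted p = 2.67e-08).

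No gene of the list of 20 other connexins and pannexins rose: 6 were tested and 5 fell, with a median log2 fold change of -0.91. Panx1, which forms membrane channels without docking, fell to 4.71 CPM in sh-1, against 8.53 CPM in sh-NC (-0.86, edgeR adjusted p = 0.00218). Gjc1 had 0 counts in sh-1 and 9 in sh-NC and was not tested.

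Desmosomes anchor keratin filaments, and of 15 listed genes 8 were tested, 4 higher and 1 lower (median 0.29). Desmoplakin (Dsp) averaged 137 CPM in sh-1 and 133 CPM in sh-NC (0.05, edgeR adjusted p = 0.752). The desmosomal cadherin Dsg2 rose to 119 CPM in sh-1, against 55.1 CPM in sh-NC (1.11, edgeR adjusted p = 6.1e-06). Plakophilin 3 (Pkp3) fell to 3.00 CPM in sh-1, against 6.29 CPM in sh-NC (-1.07, edgeR adjusted p = 0.000567). That call was lost with the GC and length trend removed (-0.43, edgeR adjusted p = 0.0611).

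**Figure D5:**
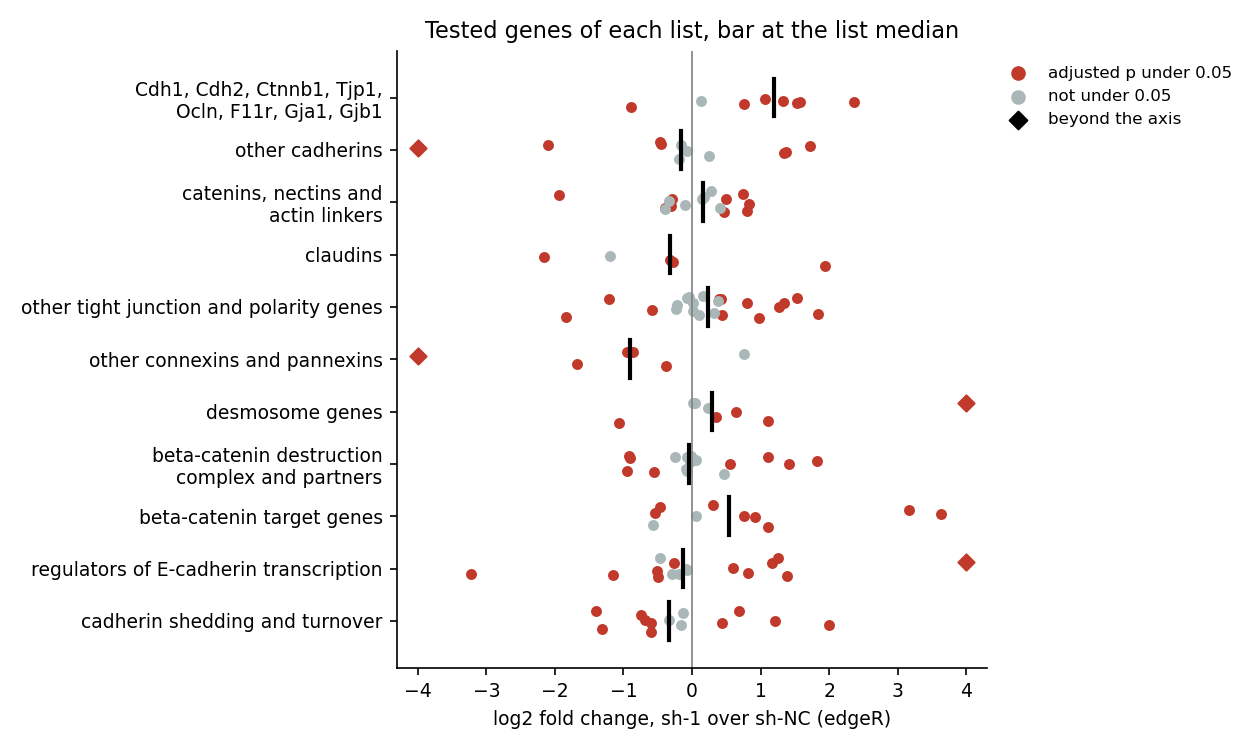
Log2 fold change, sh-1 over sh-NC, of every tested gene of each junction list, 1 row per list and 1 point per gene, with red for an edgeR adjusted p under 0.05, a bar for the list median and diamonds for values beyond 4 in size. The 8 tested junction genes described above, Ocln included, have the highest median (1.19) of these lists, and the other connexins and pannexins the lowest (-0.91). All lists were chosen with earlier results of these data known, so this order is a description only.

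For Ctnnb1, the genes that control the protein and those it activates were also read. Of 19 genes of the destruction complex and its partners 16 were tested, 4 were higher and 4 lower (median -0.05). With the GC and length trend removed 1 called gene of this list passed in the opposite direction. Apc, the scaffold that presents β-catenin for degradation, rose to 45.8 CPM in sh-1, against 12.9 CPM in sh-NC (1.83, edgeR adjusted p = 1.63e-06), or 0.95 with the GC and length trend removed. Ctnnbip1, which blocks β-catenin from TCF factors, rose to 15.6 CPM in sh-1, against 5.85 CPM in sh-NC (1.41, edgeR adjusted p = 5.12e-05). Tcf7, which encodes such a factor, rose to 8.26 CPM in sh-1, against 3.81 CPM in sh-NC (1.11, edgeR adjusted p = 0.00762). The feedback target Axin2 had 2, 0 and 0 counts in sh-1 and 0, 0 and 6 counts in sh-NC and was not tested.

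Of 17 genes known as β-catenin targets 10 were tested, 6 were higher and 2 lower, with a median log2 fold change of 0.54. Lect2, a secreted liver protein, had 6.69, 6.24 and 5.97 CPM in sh-1 and 0.580, 1.13 and 0.416 CPM in sh-NC, with no overlap. It rose by a log2 fold change of 3.17 (edgeR adjusted p = 4.48e-06). Rnf43, which removes Wnt receptors, rose to 15.7 CPM in sh-1, against 7.30 CPM in sh-NC (1.10, edgeR adjusted p = 6.36e-05). Glutamine synthetase (Glul), the classical target around the central vein, moved the other way, at 195 CPM in sh-1 and 282 CPM in sh-NC (-0.53, edgeR adjusted p = 0.00274). Lgr5 had 25, 33 and 18 counts in sh-1 and 0, 2 and 4 counts in sh-NC, and since it passed the filter only through sh-1 its test adds no support.

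Of 23 regulators of E-cadherin transcription 16 were tested, 6 were higher and 5 lower (median -0.14), so 68.8% passed, near the 65.5% of all genes. With the GC and length trend removed, 4 of the higher and 2 of the lower genes kept their direction and call. In that setting 2 called genes passed in the opposite direction, and the list median was 0.26. The repressor gene Zeb1 rose to 34.5 CPM in sh-1, against 13.2 CPM in sh-NC (1.38, edgeR adjusted p = 2.51e-06), and was at 0.87 with the GC and length trend removed. Snai1 averaged 0.653 CPM in sh-1 and 0.695 CPM in sh-NC (-0.09, edgeR adjusted p = 0.887). Snai2 averaged 1.71 CPM in sh-1 and 0.711 CPM in sh-NC (1.26, edgeR adjusted p = 0.0213), a call lost with the trend removed (0.40, edgeR adjusted p = 0.398). Hnf4a, the hepatocyte factor that sustains epithelial junctions, rose to 337 CPM in sh-1, against 150 CPM in sh-NC (1.17, edgeR adjusted p = 1.66e-07).

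Of 13 genes of cadherin shedding and turnover, all tested, 4 were higher and 6 lower (median -0.34). Rab11a, which recycles E-cadherin to the membrane, rose to 192 CPM in sh-1, against 48.0 CPM in sh-NC (2.00, edgeR adjusted p = 1.87e-08), or 0.95 with the trend removed. Cbll1 (Hakai), a ubiquitin ligase for E-cadherin, fell to 18.6 CPM in sh-1, against 49.0 CPM in sh-NC (-1.39, edgeR adjusted p = 5.03e-07). Adam10, the protease that sheds E-cadherin and N-cadherin, rose to 91.6 CPM in sh-1, against 39.7 CPM in sh-NC (1.21, edgeR adjusted p = 5.28e-06), or 0.29 with the trend removed.

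Markers of other liver cells were read beside these values. Of 9 stellate and mesenchymal markers 3 reached 1 CPM in any library, and their sum was 2059 to 2203 CPM in sh-1 and 2428 to 2595 CPM in sh-NC, almost all of it Vim, with Col1a2, Col3a1, Acta2, Pdgfrb and Thy1 below 1 CPM and Lrat at 0. Of 8 cholangiocyte markers 5 reached it, with sums of 1519 to 1692 CPM in sh-1 and 1729 to 1966 CPM in sh-NC and with Epcam and Cftr below 1 CPM. Of 6 endothelial markers 1 reached it, with sums of 0.279 to 1.68 CPM in sh-1 and 2.83 to 3.84 CPM in sh-NC. Of 6 macrophage and leukocyte markers 3 reached it, with sums of 164 to 184 CPM in sh-1 and 170 to 177 CPM in sh-NC, and Adgre1 and Ptprc were below 1 CPM. Of the 3 mesenchymal markers tested, 1 was higher in sh-1, by at least 2-fold, and 1 was lower. Of all tested genes 33.3% were higher and 32.2% lower. The mesenchymal sum follows Vim, and the part of any such cells in the values of Cdh2 and Gja1 was not tested.

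For each tested junction gene, the genes with the most similar profile over the 6 libraries were those with the smallest root mean square distance between mean-centred log2 CPM profiles. Nearest to Ctnnb1 was Anxa3 (distance 0.0315), nearest to Cdh2 was Fbxo3 (0.0310), and nearest to Cdh1 was Nup107 (0.0251). Nearest to F11r was Man1a (0.0168), nearest to Tjp1 was Pcdhb16 (0.0584), and nearest to Gja1 was Chd1 (0.0445). Gjb1 and Ocln had no neighbour as close, with Nudt2 at 0.127 for Gjb1 and Arhgap29 at 0.598 for Ocln. With 6 libraries in 2 groups and most genes differing between them, a short distance describes these libraries and says nothing of shared function.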

How the data were processed

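Polyadenylated RNA was captured on oligo(dT) beads, per the labels' protocols. The submitters' processing notes name HISAT2, StringTie and the build GRCm38. For their versions, the counting method and its use of strand, the sources used here give nothing. A single deposited table holds whole-number counts per gene, not normalised by the authors, and the authors' FPKM per gene. The authors' own comparison columns in it were not used, since the samples behind them are not named.

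Counts were fitted in R 4.3.3 with edgeR 4.0.16 (filterByExpr, TMM, robust glmQLFit and glmQLFTest, group only) and two-sided p-values adjusted by Benjamini-Hochberg over 13197 genes, threshold 0.05. CPM values are TMM-scaled, coordinates and exons are from GENCODE M21 (GRCm38), and replicates differed by more than sampling noise. The 95% intervals of fold changes come from the edgeR fit and include the spread between libraries, whereas floors of 3 counts cover counting error only. For the GC setting, natural splines with 5 df for GC content and 4 df for log2 length were fitted per library over 11956 genes (90.6% of those tested) and entered as an offset, which also removes any true change shared by genes of like composition. Other alternatives were RLE scaling, DESeq2 1.42.0, no filter, limma 3.58.1 on log2(FPKM + 0.1), a replicate block by title number and leaving out each library. Counts per kilobase of all exons replaced FPKM for levels and, chosen after seeing the data, for the ratios within a library.

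Beside the 9 genes, the text names a set of junction genes listed by name and, from each list, up to 4 genes with the smallest adjusted p among those changed at least 2-fold without overlap, of which a part is printed. Some genes that this rule names are not reported here. The 9 genes and all lists were chosen with earlier results of these data known.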

Additional observations from a re-analysis of the deposited data

How the results depend on the processing

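Under RLE scaling, DESeq2, no filter, the GC and length offset, limma on FPKM and the replicate block, the number of junction genes called was 7, 6, 7, 6, 7 and 6, against 7, and genes called were 8639, 8739, 8781, 8089, 8570 and 7465, against 8648. Without 1 library at a time these were 6 to 7 junction genes and 7912 to 8728 genes. Cdh2, Ctnnb1, Tjp1, F11r and Gjb1 kept direction and call in all of these settings. Their log2 fold changes without 1 library ran from 0.98 to 1.17 for Cdh2, 1.30 to 1.37 for Ctnnb1, 1.46 to 1.83 for Tjp1, -0.96 to -0.84 for F11r and 1.36 to 1.65 for Gjb1. Gja1 ran from 0.66 to 0.93, Cdh1 from 0.08 to 0.21 and Ocln from 1.75 to 2.84, and Ocln was at 0.84 with limma on FPKM. By counts per kilobase of exons in place of FPKM, Tjp1 was 1.66 times Cdh2 in sh-1 and 1.15 times in sh-NC. On the same scale Cdh2 was 0.369 times Cdh1 in sh-1 and 0.193 times in sh-NC. Ctnnb1 was 6.999 times the sum of Cdh1 and Cdh2 in sh-1 and 3.50 times in sh-NC there. The Gjb1 share was 45.7% in sh-1 and 33.5% in sh-NC. The last 3 of these were chosen after seeing the data. Calls in the destruction complex list went to 13 with the GC and length offset, against 8. The titles share the numbers 2 and 3 between groups. Deviations of same-numbered libraries correlated at 0.03 and -0.05, and those of differently numbered libraries at -0.11 to 0.08. The numbers were therefore not used as pairs in the main fit. So few values cannot show that the libraries were not prepared as pairs. With the replicate block Ocln was at 1.40 (edgeR adjusted p = 0.28), against 2.37, and 3 desmosome genes were called, against 5. That block followed the title number, so sh-1 replicate 1 (number 1) and sh-NC replicate 3 (number 4) each stood alone in a block. The group difference in that setting therefore rested on the other libraries. The libraries that stood alone held the highest and the lowest Ocln counts, 30 and 0. Ocln and Gjb2 rest on at most 30 counts in any library. The cause of these shifts was not tested.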
